A study of Mus musculus with 20 samples.

Results

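The comparison described here set C2C12 cells transfected with the siRNA siMyolinc.1, one of 3 designed against the long noncoding RNA Myolinc, against C2C12 cells transfected with a scramble siRNA, siScr, at day 2 of differentiation. It rests on 4 of the 20 deposited samples, 2 arrays per siRNA, chosen by their column names, and on all 20193 genes listed for that set of arrays. C2C12 is an established mouse myoblast line, so every culture descends from the same cell line and no animal stands behind a replicate. Both groups were grown with 20% fetal bovine serum, transfected at 10 nM with RNAiMax, and moved 24 h later to medium with 2% horse serum, in which they stayed for 2 days. Cells given siMyolinc.2 or siMyolinc.3 under the same conditions completed this set, with 2 arrays each. A second set held untransfected cells in growth medium (Undiff) and after 1 and 2 days of differentiation (Day_1, Day_2), together with the knockdown samples once more, so that the 20 samples came from 14 distinct arrays. Myolinc itself was not analysed here, and no check of the knockdown on its target is given.

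Growing myoblasts already express the basic helix-loop-helix factor MyoD, and when they lose serum they leave the cell cycle, switch on the related factor myogenin, fuse through the membrane protein myomaker, and fill with sarcomeres built from muscle actins, myosin chains and the intermediate filament desmin. Cell cycle genes fall during this switch while contractile and calcium handling genes rise. Long noncoding RNAs are transcripts without a protein product, and some act on the transcription of muscle genes.

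The 2 arrays of each group were close to each other. Across genes, Pearson's r was 0.9969 between the siScr arrays and 0.998 between the siMyolinc.1 arrays. Between these groups it ran from 0.9911 to 0.9929. With the siMyolinc.2 arrays siScr replicate 1 stood at 0.997 and 0.9967, about as close as to its own replicate. The median level of the 4 arrays lay between 6.93 and 6.97. All levels are robust multi-array average (RMA) values on the log2 scale, which rank samples within a gene and not genes against each other. Genes whose mean over the 8 arrays of the set lay under the 40th percentile, a level of 6.56, are called dim below. Changes come from a limma fit over those 8 arrays, with the standard error after the ± sign, and a gene is called where its Benjamini-Hochberg adjusted p over all 20193 genes is under 0.05. An exact permutation test of 2 arrays against 2 cannot give a two-sided p below 0.333, so the calls rest on the spread that limma pools over genes.

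Gene expression differed between siMyolinc.1 and siScr in both directions. Of the 20193 genes, 2276 (11.3%) were called, of which 1439 (7.13%) fell and 837 (4.15%) rose. Most changes were small, with a median size of 0.44 on the log2 scale among called genes. A change of at least 1 was seen for 114 genes that fell and 50 that rose, and a change of at least 2 for 10 and 3 genes. For none of the 2276 called genes did the arrays of the groups overlap. Such separation was common: over all 20193 genes, both siMyolinc.1 arrays lay below both siScr arrays in 5774 and above in 4887. Fewer genes were called when 1 of the 4 arrays was left out. Such a fit holds 1 array in a group, and its median standard error was 0.0997 to 0.11, against 0.0869. A lower count in these fits, here and below, cannot be told apart from this loss of precision. Genes that rose made up 36.8% of the calls, 47.5% after a further quantile normalization and 53.9% after centring each array on its 75th percentile.

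**Figure D1:**
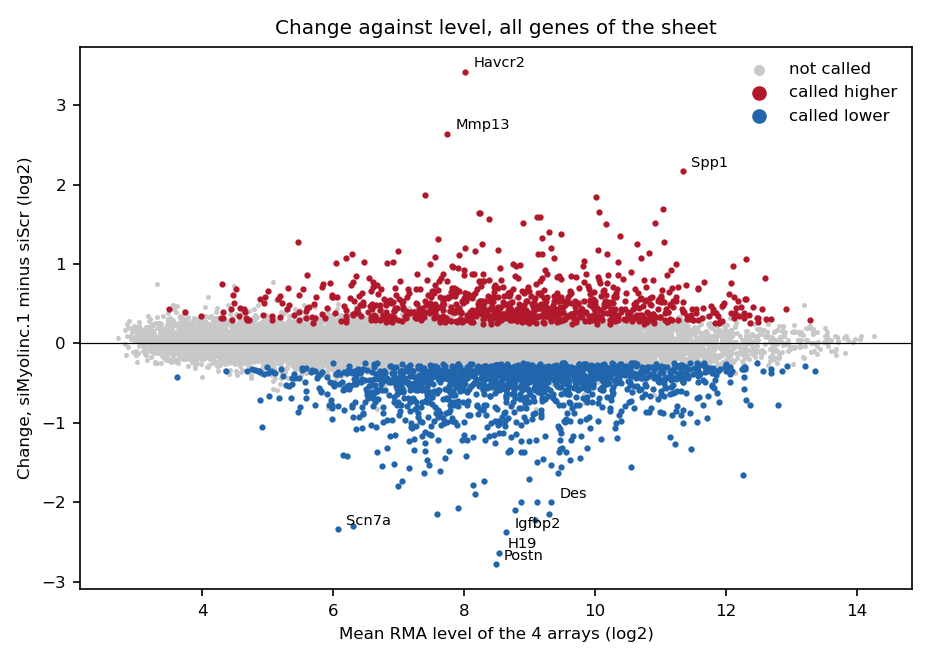
Change between siMyolinc.1 and siScr (log2, vertical axis) against the mean RMA level of the 4 arrays (log2, horizontal axis), 1 point per gene, with called genes in red (higher) and blue (lower). Havcr2 stood highest at 3.42 and Postn lowest at -2.78.

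Muscle genes were among the largest falls. Of 10 skeletal muscle markers, 9 fell and none rose (90.0% called, against 11.3% of all genes). Their median change was -1.19 against -0.01 over all genes. Desmin (Des), the intermediate filament that links myofibrils, read 10.34 and 10.32 in the siScr arrays and 8.29 and 8.38 in the siMyolinc.1 arrays. It fell by 2.00 ± 0.07 (adjusted p = 2.69e-06), or 3.99-fold. The cardiac actin gene Actc1, which embryonic skeletal muscle also uses, read 10.14 and 10.25 with siScr and 7.96 and 8.0 with siMyolinc.1 and fell by 2.22 ± 0.09 (adjusted p = 4.47e-06). Skeletal actin, Acta1, went from 9.67 and 10.02 to 8.15 and 8.13 and fell by 1.71 ± 0.13 (adjusted p = 8e-05). For these 3 genes both knockdown arrays lay more than 1.5 below both scramble arrays. Myogenin (Myog), the transcription factor that starts terminal differentiation, stood at 7.89 and 8.16 with siScr and at 6.85 and 6.7 with siMyolinc.1 and fell by 1.25 ± 0.10 (adjusted p = 8.57e-05). MyoD (Myod1), which acts before it, was the marker that was not called: its arrays read 7.37 and 7.26 against 7.07 and 6.99, a difference of -0.28 ± 0.11 (adjusted p = 0.163). Embryonic myosin Myh3 (-1.54), M-cadherin Cdh15 (-1.13), the fast light chain Mylpf (-0.80), fast troponin T Tnnt3 (-0.78) and muscle creatine kinase Ckm (-0.55) made up the rest. In bulk RNA, fewer cells of a type and less RNA per cell cannot be told apart.

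The wider sarcomere list moved less evenly. Of 65 sarcomere genes measured, 22 fell, 1 rose and 42 were not called (35.4% called, against 11.3% of all genes). The median was -0.13 and moved to -0.07 after centring on the 75th percentile. 21 of the 65 were dim. The embryonic and atrial light chain Myl4 read 10.27 and 10.48 with siScr against 8.18 and 8.27 and fell by 2.15 ± 0.08 (adjusted p = 4.47e-06). The fast light chain Myl1 read 7.85 and 7.93 against 5.90 and 6.30 and fell by 1.79 ± 0.12 (adjusted p = 4.78e-05). Both genes separated the groups by more than 1.5 on the log2 scale.

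The promoters of Des and Myl1 hold the E-box CAGCTG, the kind of site that MyoD and myogenin are known to bind, and are shown as examples from genes among the 15 largest falls. They are RefSeq sequences on build GRCm38.p6, at chr1:75360211-75360306 on the plus strand for Des and chr1:66945230-66945306 on the minus strand for Myl1, with the E-box in capitals at -36 and -224 from the start. It was searched on both strands from 250 bases before to 50 bases after the start. The E-box occurred in 20 of the 52 sarcomere promoters found in the table (38.5%), in 9 of the 20 found for called sarcomere genes (45%), and in 16.1% of the promoters of all 27025 genes of the table. In promoters found for all genes called lower the E-box share was 17.4%, and for the 20193 genes 15.8%. Des and Myl1 were taken as the called sarcomere genes with the largest changes that had a match. Actc1 and Myl4 fell more and were passed over. A match describes these letters and is not a measured binding site.
Des: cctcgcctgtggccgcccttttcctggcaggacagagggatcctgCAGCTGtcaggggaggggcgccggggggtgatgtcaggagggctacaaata
Myl1: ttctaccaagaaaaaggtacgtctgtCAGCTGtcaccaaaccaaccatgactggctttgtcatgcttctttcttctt

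Genes of fusion, calcium release and the synapse also fell in part. Myomaker (Tmem8c), without which myoblasts do not fuse, read 9.68 and 10.05 with siScr and 7.82 and 7.93 with siMyolinc.1 and fell by 1.99 ± 0.13 (adjusted p = 4.03e-05). On the fusion and adhesion list, 6 of 22 genes fell and 1 rose (31.8% called, against 11.3% of all genes). The neural cell adhesion molecule Ncam1 (-1.44) and integrin alpha 7, Itga7 (-0.98), a laminin receptor of muscle, were among the falls. Triadin (Trdn), which holds calsequestrin at the calcium release channel, read 8.31 and 9.03 against 6.18 and 6.85 and fell by 2.15 ± 0.28 (adjusted p = 0.00133). The arrays within each group also lay apart for Trdn. Of 23 calcium store and release genes 5 fell and 1 rose (26.1%). Among 14 neuromuscular junction genes 5 fell and 1 rose (42.9%). The 2 acetylcholine receptor subunits named here moved in opposite directions, since the embryonic subunit Chrng fell by 0.79 ± 0.07 (adjusted p = 0.000172) and the subunit Chrnd rose by 0.66 ± 0.08 (adjusted p = 0.000715). The counts of falls on the calcium and junction lists were lower without siMyolinc.1 replicate 2, a fit with 1 array in that group.

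Among 23 myogenic regulators 3 fell and 2 rose (21.7% called, against 11.3% of all genes). The E protein Tcf4 fell by 0.43 (adjusted p = 0.0122), while Mkl1, a coactivator of serum response factor, rose by 0.33 (adjusted p = 0.032). Of 22 genes of muscle energy supply 4 fell and 1 rose (22.7%). The riser was Ppargc1a, a coactivator of mitochondrial genes, which read 8.30 and 8.40 with siScr and 9.20 and 9.20 with siMyolinc.1 (0.85 ± 0.08, adjusted p = 0.000235). The muscle enolase Eno3 fell by 0.52 and the muscle phosphofructokinase Pfkm by 0.47. With siMyolinc.1 replicate 1 or replicate 2 left out, 2 genes of the energy list fell. The dystrophin complex list held 5 falls and 2 rises among 17 genes (41.2%). Its falls included the laminin chain Lama2 (-0.93, dim) and beta-sarcoglycan Sgcb (-0.55), and delta-sarcoglycan, Sgcd, rose by 0.64.

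Mitotic genes fell almost as a body. Of 51 mitosis and spindle genes 42 fell and none rose (82.4% called, against 11.3% of all genes), with a median of -0.69. Cyclin A2 (Ccna2), which drives S phase and entry into mitosis, read 9.01 and 9.22 with siScr and 7.15 and 7.29 with siMyolinc.1 and fell by 1.89 ± 0.11 (adjusted p = 2.32e-05). The checkpoint kinase Bub1 went from 7.61 and 8.23 to 6.31 and 6.07 and fell by 1.73 ± 0.17 (adjusted p = 0.000319). Prc1, which bundles the microtubules of the central spindle, went from 7.60 and 7.79 to 5.99 and 6.36 and fell by 1.52 ± 0.14 (adjusted p = 0.000241). For all 3 genes the groups stayed apart by more than 1 on the log2 scale. Topoisomerase II alpha (Top2a), which untangles sister chromatids, fell by 1.46 ± 0.10 (adjusted p = 4.58e-05). In the set with untransfected cells another probe set stands for Top2a. It read 4.97 and 4.9 in Day_2 and 4.53 and 4.75 with siMyolinc.1, a difference of -0.3.

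The promoters of Prc1 and Top2a are shown for the element TTTGAA, the core of a cell cycle element known from promoters of mitotic genes. Both were taken as the called mitosis genes with the largest changes that had a match. Ccna2 and Bub1 fell more and were passed over. Prc1 lies at chr7:80294401-80294496 on the plus strand with the element at -5 from the start, and Top2a at chr11:99024162-99024413 on the minus strand with 2 copies, the first at -179 and one of them on the opposite strand. Capitals mark the element, and the build and window are those given for Des. It was found in 28 of the 42 mitosis promoters in the table (66.7%), in 26 of the 35 found for called genes of the list (74.3%), and in 18.1% of all promoters. In promoters found for all genes called lower the share with TTTGAA was 14.9%, and for the 20193 genes 15.2%. The CCAAT box, searched as CCAAT on both strands, was in 30 of the 42 mitosis promoters (71.4%) against 37.9% of all promoters. Its share was 46.3% in promoters found for all genes called lower and 38.3% for the 20193 genes.
Prc1: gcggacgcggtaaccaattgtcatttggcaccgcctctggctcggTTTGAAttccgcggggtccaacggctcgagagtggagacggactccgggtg
Top2a: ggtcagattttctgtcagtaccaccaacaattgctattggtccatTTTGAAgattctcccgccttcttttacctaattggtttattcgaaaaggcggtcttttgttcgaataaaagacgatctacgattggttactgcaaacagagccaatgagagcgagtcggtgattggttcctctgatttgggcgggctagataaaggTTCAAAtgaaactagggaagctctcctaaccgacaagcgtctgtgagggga

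Part of the DNA replication list fell. Of 38 genes measured, 13 fell and none rose (34.2% called, against 11.3% of all genes), with a median of -0.21. The polymerase epsilon subunit Pole fell by 1.15, and Mcm3 and Mcm5, subunits of the replicative helicase, fell by 1.04 and 0.99. Rrm2, the small subunit of ribonucleotide reductase, fell by 0.79. Of 20 genes tied to cell cycle exit, 4 fell and 2 rose (30.0%). Cyclin D1 (Ccnd1), the G1 cyclin, was one of the 2 that rose: it read 9.23 and 9.38 with siScr and 10.36 and 10.34 with siMyolinc.1 (1.04 ± 0.11, adjusted p = 0.000399). The antiproliferative gene Btg1 was the other, at 0.74. The falls on this list were 1 without siScr replicate 2, 1 without siMyolinc.1 replicate 1 and 0 without siMyolinc.1 replicate 2.

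Sterol synthesis fell across nearly the whole pathway. Of 25 cholesterol synthesis genes 24 fell and none rose (96.0% called, against 11.3% of all genes), with a median of -0.90. Lanosterol synthase (Lss), which closes the sterol rings, read 10.22 and 10.29 with siScr and 8.66 and 8.74 with siMyolinc.1 and fell by 1.55 ± 0.08 (adjusted p = 1.88e-05). The thiolase Acat2, at the entry of the pathway, read 10.40 and 10.31 against 8.83 and 8.95 and fell by 1.46 ± 0.10 (adjusted p = 4.58e-05). Dhcr7, which makes the last step to cholesterol, fell by 1.35, and Hsd17b7, a reductase of the middle steps, fell by 1.34. In each of these 4 genes both siMyolinc.1 arrays lay below both siScr arrays. Fatty acid synthesis moved the same way in fewer genes, with 7 falls and no rise among 17 (41.2% called). The desaturase Scd2 read 12.94 and 13.24 against 11.40 and 11.46 and fell by 1.66 ± 0.12 (adjusted p = 5.48e-05), and Fads2, Scd1 and the elongase Elovl6 fell by 1.00, 0.77 and 0.57. Only 17 of the 25 sterol genes and 32 of the 41 interferon-stimulated genes had a promoter in the table, so motif counts over these lists are void for want of coverage and are not given.

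Interferon-stimulated genes were lower with siMyolinc.1. Of 41 measured, 21 fell and none rose (51.2% called, against 11.3% of all genes). The median was -0.39, and 14 of the 41 were dim. Ifi44, an interferon-induced gene, read 10.01 and 10.21 with siScr against 7.96 and 8.26 and fell by 2.00 ± 0.12 (adjusted p = 3.21e-05). The antiviral gene Oasl2 read 8.02 and 8.13 against 6.55 and 6.9 and fell by 1.35 ± 0.13 (adjusted p = 0.000242). Ddx58, which encodes the RNA sensor RIG-I, fell by 1.23 and Ifit1, which binds foreign RNA, by 1.00. Without siMyolinc.1 replicate 1 the list held 12 falls. On the MHC and peptide loading list the MHC regulator Nlrc5 and the proteasome genes Psmb10 and Psme2 fell and none rose. This was 3 of 14 genes (21.4% called, against 11.3% of all genes). That count was 1 without siScr replicate 1 and 0 without either siMyolinc.1 array.

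The extracellular matrix changed in both directions. The largest fall of all was periostin (Postn), a matricellular protein, which read 9.51 and 10.23 with siScr and 7.07 and 7.12 with siMyolinc.1 and fell by 2.78 ± 0.20 (adjusted p = 5.45e-05), or 6.85-fold. Osteopontin (Spp1), also matricellular, went the other way: it read 10.39 and 10.11 with siScr and 12.46 and 12.39 with siMyolinc.1, a rise of 2.17 ± 0.15 (adjusted p = 4.58e-05). Both were taken from genes without overlap of the groups, and the siScr arrays of Postn lay apart from each other. On the list of 32 matricellular proteins and proteoglycans 12 fell and 3 rose (46.9% called, against 11.3% of all genes). The proteoglycan decorin (Dcn) and tenascin C (Tnc) were among the falls at -1.63 and -1.17. Of 21 collagens 4 fell and 2 rose (28.6%). The chains of collagen I, Col1a2 and Col1a1, fell by 1.16 and 1.03, Col3a1 fell by 0.68, and Col8a1 rose by 1.20. Among 31 matrix proteases and inhibitors 10 fell and 6 rose (51.6%). The collagenase Mmp13 read 6.69 and 6.15 with siScr and 9.08 and 9.04 with siMyolinc.1, a rise of 2.64 ± 0.16 (adjusted p = 2.94e-05). The secreted protease inhibitor Slpi rose by 1.87 ± 0.10 (adjusted p = 1.62e-05), the aminopeptidase Anpep rose by 1.69, and the aggrecanase Adamts4 fell by 1.18. The falls among the proteases were 6 without siMyolinc.1 replicate 1.

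Growth factor carriers and an imprinted RNA stood among the large falls. H19, an imprinted long noncoding RNA that is abundant in embryonic muscle, read 9.38 and 10.31 with siScr and 7.12 and 7.31 with siMyolinc.1 and fell by 2.63 ± 0.23 (adjusted p = 0.000168). Its scramble arrays lay apart from each other, and both were above the knockdown arrays. The insulin-like growth factor carrier Igfbp2 read 9.75 and 9.91 against 7.64 and 7.26 and fell by 2.37 ± 0.14 (adjusted p = 2.84e-05). Of 18 genes of the IGF system 6 fell and none rose (33.3% called, against 11.3% of all genes). Igfbp6 (-0.99), Igfbp7 (-0.94) and Igfbp5 (-0.62), carriers of the same family as Igfbp2, were 3 of the other falls. Among 21 imprinted genes 4 fell and none rose, a share of called genes above the 11.3% of all genes, and 10 of the 21 were dim. The paternally expressed genes Peg3 and Peg10 fell by 1.21 and 0.42.

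Signalling lists were mixed, and their shares of called genes are given against 11.3% of all genes. Of 36 TGF-beta and BMP genes 5 fell and 3 rose (22.2%): the ligand Bmp4 fell by 1.13, Smad3, which carries TGF-beta signals to the nucleus, by 0.64, and the BMP antagonist Grem1 rose by 0.97. The rises were 1 without siMyolinc.1 replicate 1. Of 40 WNT genes 6 fell and 3 rose (22.5%), and the receptor Fzd2 (-1.23), the ligand Rspo3 (-1.21) and the nuclear effector Tcf7l2 (-0.61) were lower. The WNT rises were 1 without either siMyolinc.1 array and 5 after 75th percentile centring. Of 18 FGF genes 2 rose and none fell (11.1%), a share near that of all genes. Fgf7, a ligand of the family, read 8.35 and 8.38 with siScr and 9.90 and 10.00 with siMyolinc.1 (1.59 ± 0.09, adjusted p = 2.84e-05), and the receptor Fgfr1 rose by 0.58. Among 52 semaphorins, plexins, ephrins and Eph receptors, which guide axons and migrating cells, 15 fell and 2 rose (32.7%), and the ligands Sema6a and Sema3c fell by 1.6 and 1.56. Of 23 genes of the Id, Notch and Twist list 4 fell and 2 rose (26.1%), the Notch ligands Jag2 and Dll1 among the falls at -0.50 and -0.47. Those falls were 0 without siMyolinc.1 replicate 2, 1 without siScr replicate 1, and 2 under each of 3 other settings, the remaining arrays left out and 75th percentile centring.

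Actin and serum response factor targets of nonmuscle cells were lower, with a count that dropped in fits without 1 array. Of 30 measured, 17 fell and 1 rose (60.0% called, against 11.3% of all genes), with a median of -0.29. The regulatory light chain Myl9 read 10.36 and 10.11 with siScr and 8.84 and 8.91 with siMyolinc.1 and fell by 1.36 ± 0.15 (adjusted p = 0.000552), and the actin-binding Tagln, the LIM protein Csrp1 and smooth muscle actin Acta2 fell by 0.99, 0.85 and 0.78. The falls were 6 without siScr replicate 2, 5 without siMyolinc.1 replicate 1, 5 without siMyolinc.1 replicate 2, and 10 after 75th percentile centring. Of 29 integrins and laminins 7 fell and 3 rose (34.5% called, against 11.3% of all genes). The rises included Itgb7, at 7.46 and 7.35 with siScr and 9.07 and 9.01 with siMyolinc.1 (1.64 ± 0.07, adjusted p = 9.05e-06), and the laminin receptor chain Itga6, at 8.53 and 8.65 against 9.99 and 9.99 (1.40 ± 0.07, adjusted p = 1.62e-05). The falls on that list were 3 without siMyolinc.1 replicate 1.

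The largest rise of all was in Havcr2, which encodes TIM-3, a receptor best known as a checkpoint on T cells. It read 6.34 and 6.27 in the siScr arrays and 9.68 and 9.78 in the siMyolinc.1 arrays, a rise of 3.42 ± 0.08 (adjusted p = 1.06e-07). Both siScr arrays lay under the dim level of 6.56, so the fold of 10.7 on this scale rests on a dim baseline. The same holds for the siScr means of Mmp13 and Slpi, at 6.42 and 6.46. Of 23 TNF and TIM receptors and ligands 5 rose and none fell (21.7% called, against 11.3% of all genes). The mouse decoy receptors for the death ligand TRAIL, Tnfrsf23 and Tnfrsf22, rose by 1.84 ± 0.10 (adjusted p = 2.1e-05) and 1.18 ± 0.08 (adjusted p = 4.78e-05), and the ligand Tnfsf9 rose by 0.66. Without siMyolinc.1 replicate 1 the rises were 3. Gfral, known as the receptor for the stress hormone GDF15, read 8.12 and 8.15 against 9.62 and 9.68, and its ligand Gdf15 read 9.18 and 9.11 against 9.56 and 9.54. They rose by 1.51 ± 0.07 (adjusted p = 9.59e-06) and 0.41 ± 0.07 (adjusted p = 0.00523). Layilin (Layn), a hyaluronan receptor, and the chromatin protein Hmga2 rose by 1.66 and 1.51, and Car8, a carbonic anhydrase relative without enzyme activity, rose by 1.5.

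**Figure D2:**
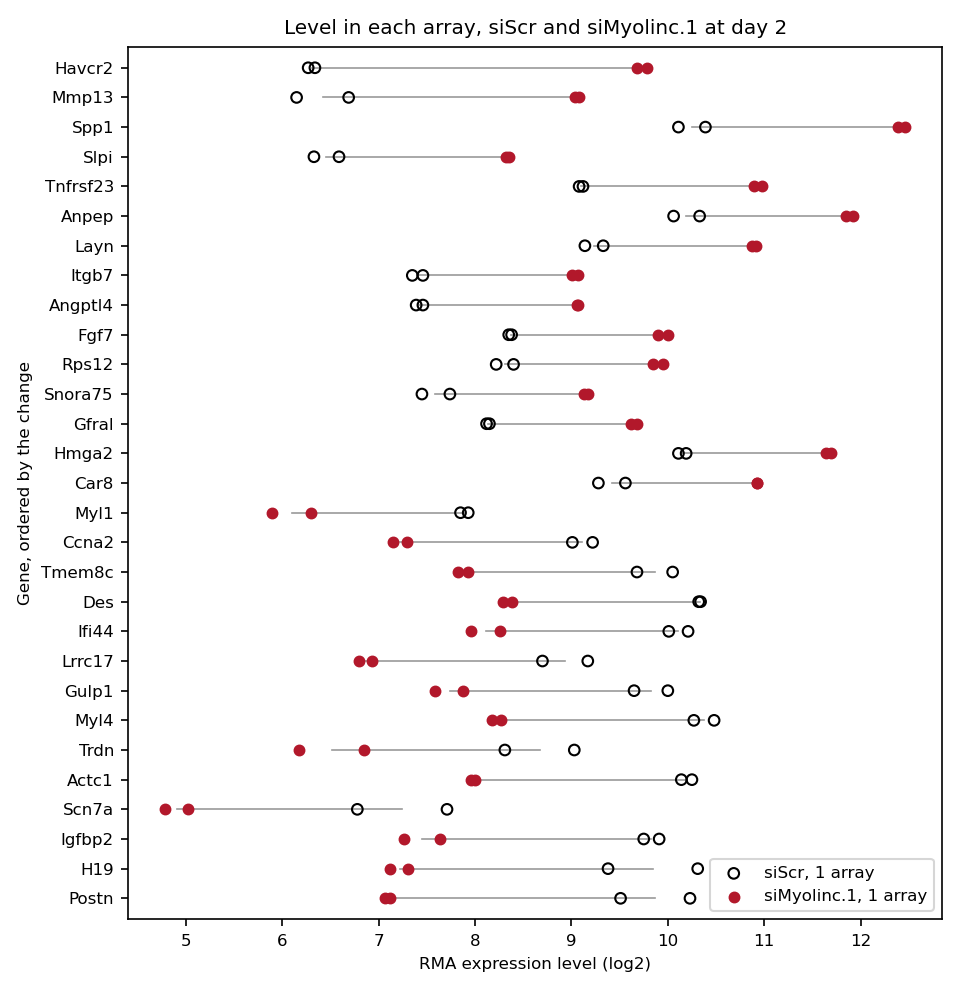
RMA level (log2) of the 15 most raised called genes and of 14 of the 15 most lowered, 1 row per gene, with open circles for the 2 siScr arrays, filled circles for the 2 siMyolinc.1 arrays and a grey line between the group means. Genes were taken only where the groups do not overlap, and the siScr arrays of Postn, H19, Scn7a and Trdn lie apart from each other.

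Also among the 15 largest falls were Scn7a, a sodium-sensing channel, the engulfment adaptor Gulp1 and the secreted protein Lrrc17. Scn7a read 6.78 and 7.71 with siScr and 4.79 and 5.02 with siMyolinc.1 and fell by 2.34 ± 0.24 (adjusted p = 0.000338), and was dim. Gulp1 and Lrrc17 fell by 2.09 and 2.07.

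Antioxidant genes rose. Of 28 targets of NRF2, the factor that answers oxidants, 14 rose and none fell, with a median of 0.36. The quinone reductase Nqo1 read 8.58 and 8.46 with siScr and 9.90 and 9.79 with siMyolinc.1, a rise of 1.33 ± 0.09 (adjusted p = 4.9e-05). Gclm, a subunit of the enzyme that starts glutathione synthesis, rose by 0.80, Osgin1 by 0.65 and the cystine importer Slc7a11 by 0.62. Of 28 immediate early genes and growth signal targets 11 rose and 2 fell (46.4% called). Etv4 and the phosphatase Dusp6, both known to follow ERK signalling, rose by 1.31 ± 0.09 (adjusted p = 4.9e-05) and 1.12 ± 0.08 (adjusted p = 6.09e-05), and the nuclear receptor Nr4a1 rose by 0.98. Egr1, also an early response factor, fell by 1.22 ± 0.09 (adjusted p = 5.61e-05), from 8.47 and 8.69 to 7.34 and 7.38. Of 20 genes of fatty acid use 6 rose and 1 fell (35.0% called, against 11.3% of all genes). The lipoprotein lipase inhibitor Angptl4 rose by 1.64 ± 0.14 (adjusted p = 0.000135), the lipid droplet coat Plin2 by 1.06, and the mitochondrial importer Cpt1a by 0.64. All 3 had knockdown arrays above both scramble arrays.

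Several short lists held called genes, with shares given against 11.3% of all genes. Of 16 prostaglandin genes 5 rose and none fell (31.2%), with the inducible cyclooxygenase Ptgs2 at 0.82 and the synthase Ptges at 0.58. Of 13 genes of the sodium-potassium pump 3 rose and 1 fell (30.8%): the beta subunit Atp1b1 read 9.85 and 9.57 with siScr and 11.03 and 11.09 with siMyolinc.1 (1.35 ± 0.10, adjusted p = 8.05e-05), and the modulator Fxyd5 rose by 1.07. Of 23 p53 targets 5 rose and 2 fell (30.4%), of 16 heat shock genes 5 rose and 1 fell (37.5%), and of 20 atrophy and autophagy genes 4 rose and none fell (20.0%). The mitophagy receptor Bnip3 rose by 0.69 and the muscle ubiquitin ligase Fbxo32 by 0.35. Counts of rises of 5 for prostaglandin and p53 genes were 3, 2 and 3 without siScr replicate 2, siMyolinc.1 replicate 1 and siMyolinc.1 replicate 2. For heat shock genes they were 3 in each of these cases, and for atrophy genes 2, 1 and 1. Of 35 chemokines and interleukins 5 rose and 4 fell (25.7%), and without the same arrays the rises were 2, 0 and 1 and the falls 2, 2 and 2. Of 13 carbonic anhydrases 2 rose and 2 fell (30.8%), and the muscle enzyme Car3 fell by 1.23. Of 31 voltage-gated channels 3 fell (9.7%, a share under that of all genes), 22 were dim, and 1 fell without siScr replicate 2 or siMyolinc.1 replicate 2.

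Genes of the unfolded protein response and of amino acid supply fell in part. Of 23 genes of the unfolded protein response 7 fell and 1 rose (34.8% called, against 11.3% of all genes) with a median of -0.23, and the falls included Sel1l, part of the machinery that clears misfolded proteins, at -0.52 and the stress sensor kinase Eif2ak3 at -0.47. Those falls were 4 without siScr replicate 2, 2 without siMyolinc.1 replicate 1 and 3 without siMyolinc.1 replicate 2. Of 28 ATF4 targets 5 fell and 1 rose (21.4%). The proline enzyme Pycr1 fell by 1.00 and the amino acid transporter Slc7a5 by 0.57.

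Small nucleolar RNAs, which guide the modification of ribosomal RNA, rose. Of 52 measured 32 rose and none fell (61.5% called, against 11.3% of all genes), with a median of 0.52. Snora75 read 7.45 and 7.74 with siScr and 9.17 and 9.13 with siMyolinc.1, a rise of 1.56 ± 0.12 (adjusted p = 7.12e-05), and Snord14e read 8.79 and 8.77 against 10.12 and 10.21, a rise of 1.38 ± 0.07 (adjusted p = 1.62e-05). The rises were 21 without siMyolinc.1 replicate 1 and 19 without siMyolinc.1 replicate 2. Of 65 cytosolic ribosomal protein genes 18 rose and none fell (27.7% called, against 11.3% of all genes), with a median of 0.17. The count of rises was lower without siScr replicate 2 or either siMyolinc.1 array. Rps12 read 8.40 and 8.22 with siScr and 9.85 and 9.95 with siMyolinc.1, a rise of 1.59 ± 0.08 (adjusted p = 1.64e-05), while Rpl14, Rps29 and Rps28 rose by 0.60, 0.58 and 0.56. Many small nucleolar RNAs are cut from introns of ribosomal protein genes, and whether their probe sets share transcript with the host gene was not tested. None of 68 mitochondrial ribosomal protein genes was called by limma (11 at an unadjusted p under 0.05), 1 of 38 proteasome genes fell (2.6%), and of 73 genes of the respiratory chain and ATP synthase 2 rose and 3 fell (6.8%), shares under the 11.3% of all genes. Those 3 falls were 0 or 1 in each fit without 1 of the 4 arrays, and 1 after 75th percentile centring. Of 31 histone genes 8 fell and 1 rose (29.0%), with fewer falls in the fits that left out 1 array and 5 after 75th percentile centring. The histone genes have near-identical copies, so single members are uncertain.

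**Figure D3:**
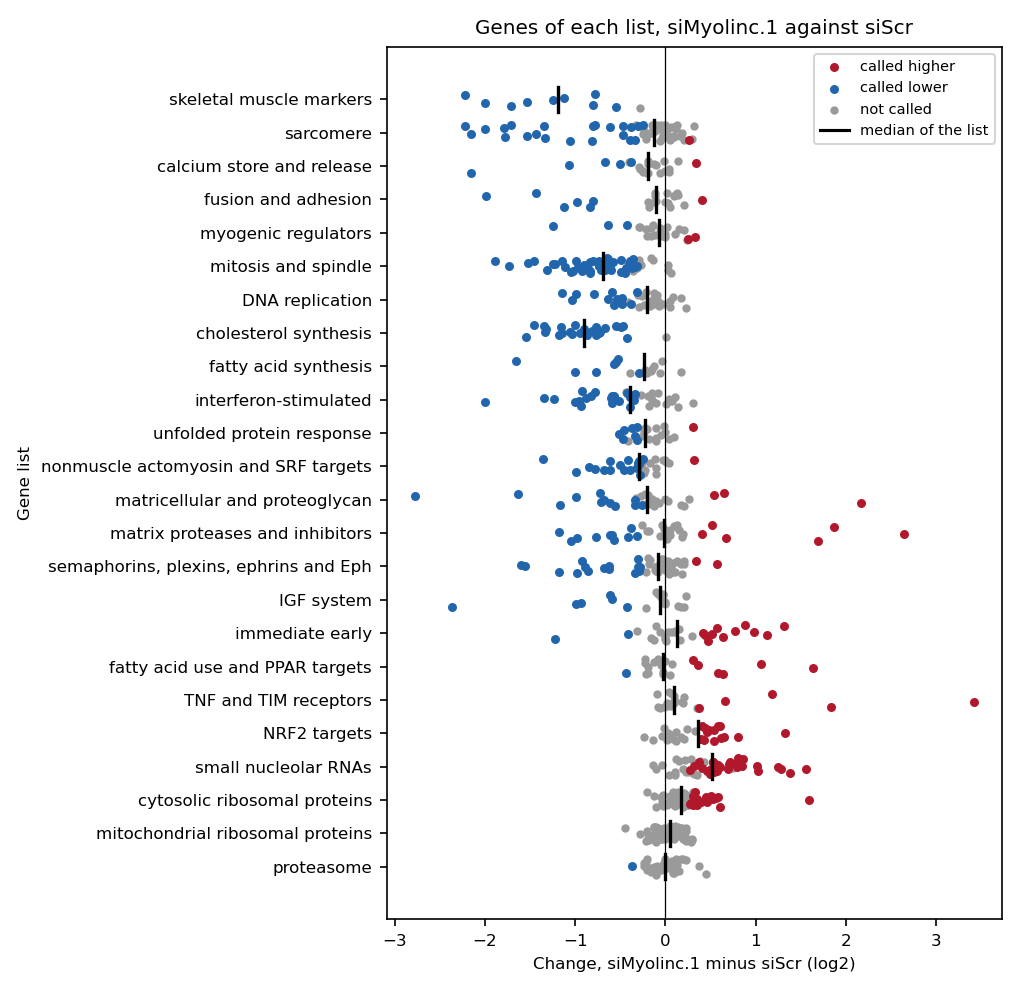
Change between siMyolinc.1 and siScr (log2, horizontal axis) of each measured gene in 24 of the lists (rows), 1 point per gene, red where called higher, blue where called lower and grey where not called, with a black bar at the list's median. Mitosis and cholesterol synthesis lie left of 0 with medians of -0.69 and -0.90, and NRF2 targets and small nucleolar RNAs lie right of it with medians of 0.36 and 0.52.

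Markers of other cell types held few calls in some lists and more in others. limma called no gene among 10 adipocyte, 11 endothelial and 9 chondrocyte markers, with 0, 2 and 0 at an unadjusted p under 0.05. Of 12 macrophage markers 1 rose (8.3%, against 11.3% of all genes), Cd68, which read 7.05 and 7.23 against 7.71 and 7.64. The mean level of the macrophage list was 5.83 in both siScr arrays and 5.91 in both siMyolinc.1 arrays, and 10 of its 12 genes were dim. Among 12 osteoblast markers Spp1 (2.17) and the transcription factor Runx2 (0.40, adjusted p = 0.0312) rose (16.7%). The mean of the list went from between 6.83 and 6.85 to between 7.11 and 7.14. Its median change was 0.06, and 7 of the 12 genes were dim. Of 8 smooth muscle markers Tagln, Acta2 and Actg2 fell (37.5% called, against 11.3% of all genes), and the mean of the list was 8.24 and 8.27 with siScr and 7.95 and 7.91 with siMyolinc.1. Of 11 fibroblast markers Ly6a, Col3a1 and Pdgfrb fell (27.3%), and the mean of the list was 7.39 and 7.43 against 7.19 and 7.12. The smooth muscle falls were 1 without siScr replicate 2 or siMyolinc.1 replicate 1. The mean of the skeletal muscle marker list was 8.60 and 8.69 with siScr and 7.45 and 7.4 with siMyolinc.1. The part of other cell types in these results was not tested.

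The direction of these changes was set beside normal differentiation, measured on arrays that the siMyolinc.1 and siScr comparison does not hold. Between Undiff and Day_2 untransfected cells, limma called 6043 genes (29.9%), of which 2982 rose (14.8%) and 3061 fell (15.2%). Of 1383 genes that fell with siMyolinc.1 and had the same probe set in both tables, 625 rose in differentiation (45.2%, and 21.8% of the 2872 that rose), where 14.7% of all 19487 genes with the same probe set did. A further 322 (23.3%, and 11% of 2929) also fell, against 15% of all. Of the 778 genes that rose with siMyolinc.1, 243 (31.2%, and 8.3% of 2929) fell in differentiation and 171 (22%, and 6.0% of 2872) rose.

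The lists parted along these lines. Genes counted in both comparisons had the same probe set in both tables, while counts for 1 comparison cover all members measured. Of the 22 sarcomere genes that fell, 20 rose in differentiation, and of the 21 interferon-stimulated genes that fell, 15 did. Over the whole lists, 32 of 65 sarcomere genes and 20 of 41 interferon-stimulated genes rose in differentiation. The actin gene Actc1 rose by 3.16 and Myl1 by 4.77 from Undiff to Day_2. Mitotic genes moved down in both comparisons: 51 of 51 fell in differentiation, among them the 40 genes that fell with siMyolinc.1 and had the same probe set in both tables. DNA replication genes did likewise, with 38 of 38 falling in differentiation and all 13 knockdown falls among them. Of the 24 cholesterol genes that fell with siMyolinc.1, 13 rose and 2 fell in differentiation, and of all 25 on the list 14 rose and 2 fell. Of the 14 NRF2 targets that rose, 11 fell in differentiation, among them Nqo1, which fell by 2.95. Of all 28 NRF2 targets 19 fell in differentiation.

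**Figure D4:**
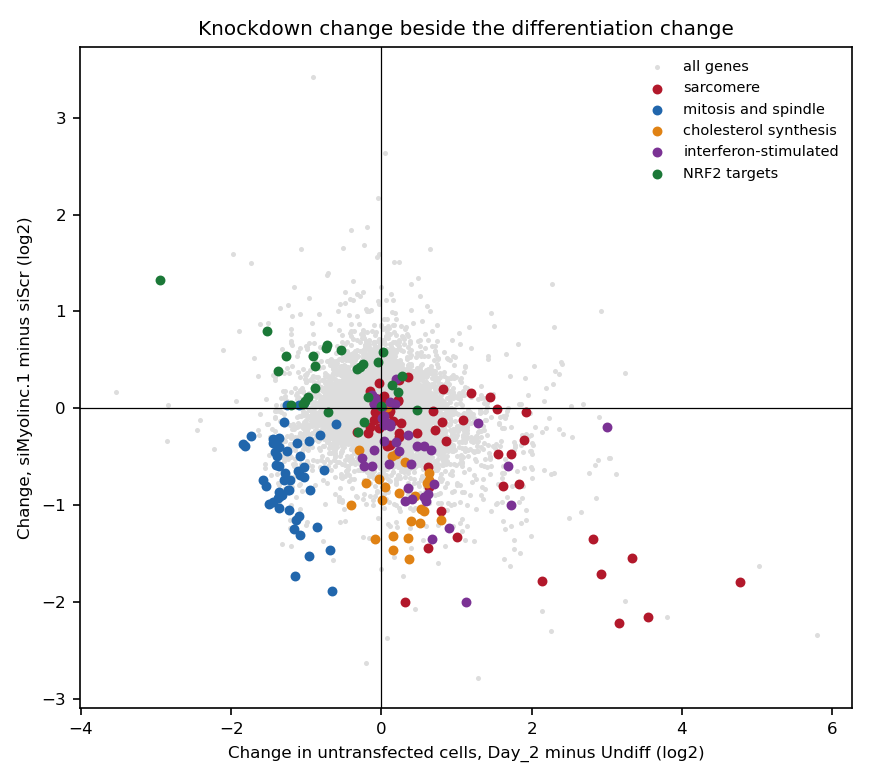
Change between siMyolinc.1 and siScr (log2, vertical axis) against the change between Day_2 and Undiff in untransfected cells (log2, horizontal axis), with all genes in pale grey and 5 lists in colour. Sarcomere genes reach the lower right, mitosis genes the lower left and Nqo1 the upper left at -2.95 and 1.33.

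Untransfected Day_2 cells gave a second reference. This comparison shares the siMyolinc.1 arrays with the one against siScr and differs in transfection as well as in the siRNA, so these cannot be told apart, and the values are set side by side only. limma called 7106 genes between siMyolinc.1 and Day_2 (35.2%), of which 3511 were higher and 3595 lower. Skeletal muscle markers held 9 falls of 10 against either reference, with medians of -1.19 against siScr and -2.02 against Day_2. The 9 were not the same genes. Myod1 was not called against siScr (-0.28) and fell by 2.25 against Day_2. Ckm fell by 0.55 against siScr and was not called against Day_2 (0.16), where its probe set was a different one. Mitosis genes held 42 and 51 falls of 51. Stress lists read differently by reference. The unfolded protein response list held 7 falls and 1 rise of 23 against siScr, and 1 fall and 21 rises against Day_2. ATF4 targets held 5 falls and 1 rise of 28 against siScr, and 1 fall and 23 rises against Day_2. Ifi44 fell by 2.00 against siScr and rose by 0.97 against Day_2, and the interferon list held 15 falls and 8 rises of 41 against Day_2. Spp1 was higher by 2.17 against siScr and by 0.27 against Day_2 (adjusted p = 0.0853), and the change of Angptl4 was 1.64 and -0.40. Havcr2 was higher by 3.42 and 3.37, and Gfral by 1.51 and 3.85.

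The labels name 3 siRNAs against the same target, and siMyolinc.1 was compared directly with each of the others on the same 8 arrays. limma called 959 genes between siMyolinc.1 and siMyolinc.2 (4.75%), of which 300 were higher and 659 lower with siMyolinc.1. That count was 308 and 318 without siMyolinc.1 replicate 1 and 2, and 347 and 260 without siMyolinc.2 replicate 1 and 2. Des read 10.19 and 10.18 with siMyolinc.2, close to its siScr values, and the difference of siMyolinc.1 from siMyolinc.2 was -1.85 (adjusted p = 5.99e-06). Igfbp2 read 9.54 and 9.55 with siMyolinc.2, a difference of -2.09 (adjusted p = 0.000155). The adhesion receptor Gpr56 read 9.22 and 9.12 with siScr, 7.50 and 7.38 with siMyolinc.1 and 9.31 and 9.36 with siMyolinc.2, a difference of -1.90 (adjusted p = 7.78e-06). For Gpr56 the siMyolinc.2 arrays lay above both siScr arrays, and for Des just below them. For AU018091, the stem cell antigen Ly6a and Prrg4 the difference from siMyolinc.2 was -1.77, -1.64 and -1.56.

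Higher with siMyolinc.1 than with siMyolinc.2 were Havcr2 by 2.03, Mmp13 by 1.54, Slpi by 1.41, the small nucleolar RNA Snord53 by 1.36, Spp1 by 1.29 and Angptl4 by 1.26. Havcr2 read 7.76 and 7.65 with siMyolinc.2, between its siScr and siMyolinc.1 levels. Of the mitosis genes 23 of 51 were lower with siMyolinc.1 than with siMyolinc.2, and of the cholesterol genes 19 of 25. The pump subunit Atp1b1 read 11 and 10.87 with siMyolinc.2 and did not pass the test against siMyolinc.1 (0.13, adjusted p = 0.611). Ppargc1a read 9.42 and 9.42 with siMyolinc.2 and did not pass it either (-0.22, adjusted p = 0.18).

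Between siMyolinc.1 and siMyolinc.3 limma called 0 genes (0%), with 1207 at an unadjusted p under 0.05 and a smallest adjusted p of 0.421. The median half-width of the 95% interval of the difference was 0.196 on the log2 scale. Of the 2276 genes called between siMyolinc.1 and siScr, 2274 had an interval that stayed within 1 of 0 and 2124 one within 0.5, and the largest difference was 0.58. Des read 8.52 and 8.50 with siMyolinc.3, Mmp13 read 8.90 and 9.17, and Havcr2 read 9.20 and 9.14, a difference of 0.56 ± 0.08 (adjusted p = 0.421). The absence of calls does not show that both siRNAs act alike.

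**Figure D5:**
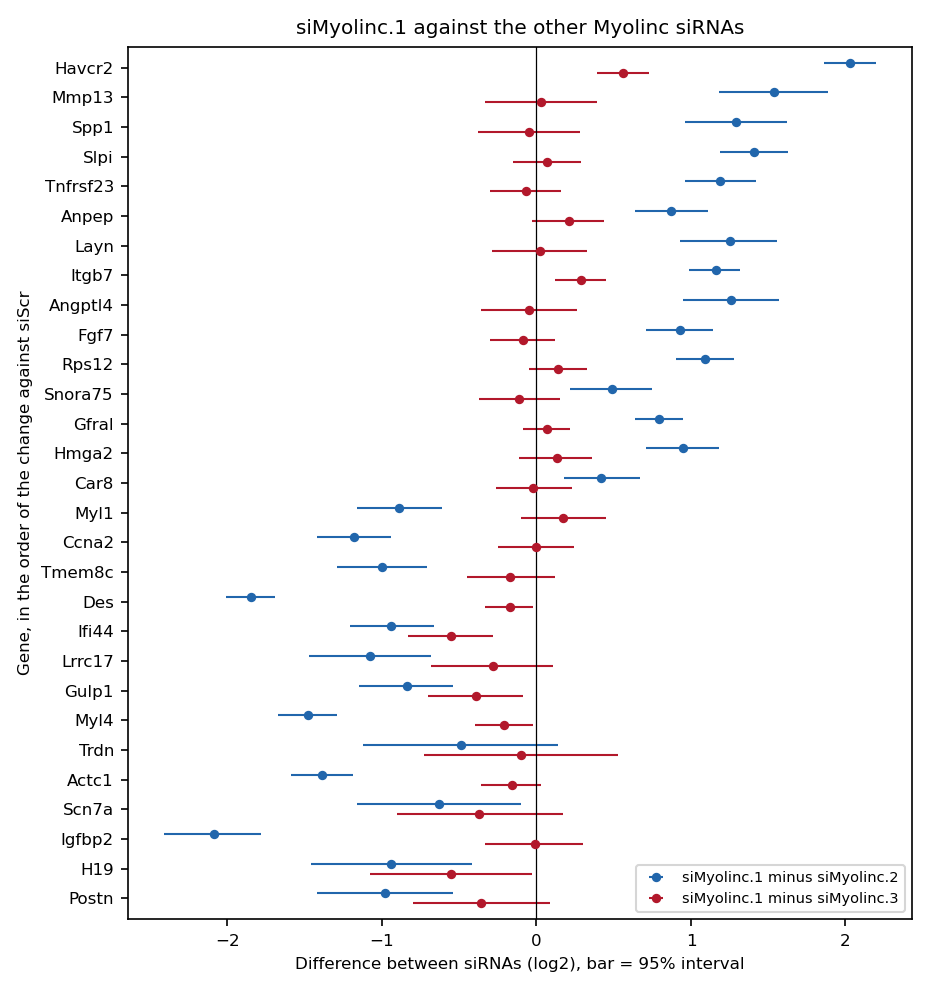
Difference between siMyolinc.1 and siMyolinc.2 (blue) or siMyolinc.3 (red) on the log2 scale (horizontal axis) for the 15 largest rises and 14 of the 15 largest falls against siScr (rows), with bars for the 95% interval of the fit. Differences from siMyolinc.2 reach 2.03 for Havcr2 and -2.09 for Igfbp2, and differences from siMyolinc.3 stay closer to 0.

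Filip1 and its neighbours were listed as a separate group. Filip1, which encodes a filamin A interacting protein, was dim, at 5.88 and 5.98 with siScr and 5.97 and 5.67 with siMyolinc.1, and its difference of -0.11 ± 0.12 did not pass the test (adjusted p = 0.657). The groups overlapped. None of the 7 genes of that list was called by limma, and 2 had an unadjusted p under 0.05.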

How the data were processed

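Total RNA of C2C12 cells was hybridised as biotin-labelled cRNA to Affymetrix arrays, per the labels' protocols. The deposited log2 values were made with RMA, and limma is also named, per the submitters' processing notes. Tool versions, annotation and build were not given in the sources used here. Summarisation was done separately for the 2 sets, so tests stayed within a set. The authors' deposited log2 differences and p-values were not used. Spreadsheet day numbers stood in 23 cells of 1 siMyolinc.3 column, in the set with untransfected cells, and were set to missing; 23 gene symbols turned into dates were named from the gene name column. Deviations of each siMyolinc.1 array correlated at 0.933 and 0.938 between the sets, which hold the same hybridisations.

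Groups were compared with limma 3.58.1 in R 4.3.3 (lmFit, eBayes, two-sided, Benjamini-Hochberg over 20193 genes, threshold 0.05), on 8 arrays for the scramble set and 12 for the time-course set, and tested on simulated data first. The labels call replicates biological and say no more, so p-values measure the spread between these arrays, whose small number limits the precision. The text names the 15 largest called rises and falls without overlap, up to 6 each way against siMyolinc.2 and siMyolinc.3, up to 4 called genes per list by size, the muscle markers and Filip1. Members and gene lists (55) were chosen with earlier results of these data known. Of the symbols, 17433 are current in the RefSeq table of GRCm38.p6, 2048 are older names and 712 did not match. Promoters were the first listed per gene. Alternatives were other normalizations, filters, variance models, array subsets, a replicate block and the whole value table.

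The labels do not say whether replicate numbers pair the samples, and the main fits treated them as unpaired. The correlation of same-numbered deviations in the scramble set ran from -0.113 to 0.221, which cannot settle whether they are paired. Some genes that the naming rule takes are not reported here.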

Additional observations from a re-analysis of the deposited data

Results flagged for a closer look

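The deposited value table holds 15363 probe sets of the scramble set beyond the 20193 genes described above, with no gene name in that value table. In a limma fit over the whole value table, 600 of them were called between siMyolinc.1 and siScr. Of these, 411 were higher and 189 lower with siMyolinc.1, and 87 differed by at least 1 on the log2 scale. They appear in none of the comparisons above.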

How the results depend on the processing

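Leaving out 1 of the 8 arrays at a time moved the number of genes called between siMyolinc.1 and siScr from 2276 to between 997 and 2474. For siMyolinc.1 against siMyolinc.2 the 959 calls became 260 to 347 when an array of either group was left out, 1833 with array weights and 450 with the whole value table; the cause was not tested. For siMyolinc.1 against siMyolinc.3 limma called 0 genes under every setting run. With the replicate number as a block (replicate block), the counts were 2195 against siScr, 893 against siMyolinc.2, 0 against siMyolinc.3, 6961 against Day_2 and 5904 for Day_2 against Undiff. Whether the numbers pair the samples is not known. The uncalled difference of Filip1 between siMyolinc.1 and siScr was -0.26 without siMyolinc.1 replicate 1 and turned to 0.04 without siMyolinc.1 replicate 2 (limma, adjusted p = 0.93). Of the 187 named genes called against siScr, 145 kept the call under every setting that tested them, 36 lost it without siMyolinc.1 replicate 1 and 23 in the whole value table. The list counts with an array left out or with 75th percentile centring were chosen after seeing the data.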
